A study of Homo sapiens with 9 samples.

Results

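Genes of the urea cycle and of amino acid catabolism were followed in HepG2, a hepatocyte-like cell line of human liver cancer, after CRISPR cutting of KEAP1. The 9 genes were chosen by name: CPS1, OTC, ASS1, ASL, ARG1 and ARG2 of urea formation, GLUD1 of glutamate oxidation, and TAT and HPD of tyrosine breakdown. Of these, 8 were found by their Entrez gene numbers among the 11746 numbered rows of the count table, and all 8 passed the filter on low counts. OTC, the enzyme that joins ornithine and carbamoyl phosphate, was not among the rows and is not analysed here.

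The libraries formed 3 groups of 3: cells whose guide cut the safe-harbour site AAVS1 (sgCtrl) and cells with one of 2 guides against KEAP1 (sgKEAP1-1 and sgKEAP1-2). All 9 carried the lentiCRISPRv2 vector, which brings in Cas9 together with the guide, had been selected with puromycin, have no siRNA in their labels, and were collected 48 h after seeding. The medium held nonessential amino acids, glutamine, pyruvate and serum. The methods describe no cloning step, so each group is a selected cell population, and the labels do not say whether libraries with different numbers came from separate cultures: the p-values measure the spread between these libraries. KEAP1 protein holds the transcription factor NRF2 in check, and the comparisons address how these metabolic genes differ once that check is cut.

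The urea cycle turns ammonia into urea and is a defining function of the hepatocyte. CPS1 fixes ammonia in the mitochondrion, OTC makes citrulline, ASS1 and ASL turn citrulline and aspartate into arginine and fumarate in the cytosol, and ARG1 splits arginine into urea and ornithine. Glutamate dehydrogenase (GLUD1) releases ammonia from glutamate, and tyrosine is broken down by TAT, HPD, HGD, GSTZ1 and FAH in turn.

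KEAP1 itself, the gene cut by both KEAP1 guides, was measured first. Its level in normalised CPM (read counts scaled to a common library size, with TMM factors) was 63.3, 89.2 and 85.3 in the sgCtrl libraries 1 to 3, 64.1, 62.5 and 53.4 with sgKEAP1-1, and 81.9, 85.6 and 73.9 with sgKEAP1-2. The libraries of each KEAP1 guide overlapped with the sgCtrl libraries, whereas those of the 2 guides did not overlap with each other (sgKEAP1-2 minus sgKEAP1-1 0.42 on the log2 scale, 95% interval from 0.10 to 0.75, edgeR adjusted p = 0.9). Read counts alone cannot tell an edited KEAP1 transcript from an intact one. NQO1, a NRF2 target, was at 505 to 536 CPM in the sgCtrl libraries, 1265 to 1442 with sgKEAP1-1 and 1545 to 1900 with sgKEAP1-2, so every KEAP1 KO library lay above every sgCtrl library. The depth was 3011644 to 4725840 reads on numbered genes per library. Hepatocyte and hepatoma markers were all present (8 of 8), and their summed level moved with the groups, from 30033 to 37554 CPM in sgCtrl cells to 17200 to 21727 with sgKEAP1-1 and 14108 to 15829 with sgKEAP1-2. At an edgeR adjusted p under 0.05, 5 of the 8 were called lower with each guide (ALB, APOA1, TF, FGB and AFP). With each guide 1 was called higher (TTR). Of all features, 1.4% were called lower and 2.8% higher with sgKEAP1-1, and 4.85% and 5.96% with sgKEAP1-2. APOB (log2 fold changes -0.06 and 0.03) and SERPINA1 (-0.15 and -0.28) did not pass. ALB, at a mean of 13657 CPM in sgCtrl cells, had the largest weight in the summed level. Of 8 markers of other liver cells, 5 (PTPRC, PECAM1, CDH5, COL1A2 and DES) were not among the rows, and the summed level of the other 3 was 2.91 to 11.2, 10.3 to 15.8 and 15.4 to 19.1 CPM. Of those, LYVE1 had 0 to 2 counts in the sgCtrl libraries and 18 to 49 counts in the KEAP1 KO libraries. The part of these marker shifts in the results below was not tested.

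With each KEAP1 guide, 3 of the 8 genes passed the threshold and the same 3 moved in the same direction. HPD and ASL rose, and GLUD1 fell. The other 5, CPS1, ASS1, ARG1, ARG2 and TAT, did not pass with either guide. The threshold was an adjusted p under 0.05 (Benjamini-Hochberg, over all 11064 features tested) in the quasi-likelihood test of edgeR. As background, 4.2% of features were called with sgKEAP1-1 and 10.8% with sgKEAP1-2: 2.8% higher and 1.4% lower with sgKEAP1-1, and 5.96% higher and 4.85% lower with sgKEAP1-2. Called with both guides were 2.77% of features higher and 1.37% lower. Both comparisons use the same 3 sgCtrl libraries, so the second guide is not a separate test of the first. The sgKEAP1-1 libraries did not overlap with the sgCtrl libraries for 2 genes above (HPD and ASL) and 1 below (GLUD1), beside 11.5% and 10.3% of all features, and the sgKEAP1-2 libraries for the same 2 above and for GLUD1 and ASS1 below, beside 14.3% and 13.7%. Over the 8 genes the log2 fold change had a median size of 0.43 (sgKEAP1-1) and 0.67 (sgKEAP1-2), and over all features tested of 0.19 and 0.24. The signed medians of the 8 were -0.11 and 0.03.

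**Figure D1:**
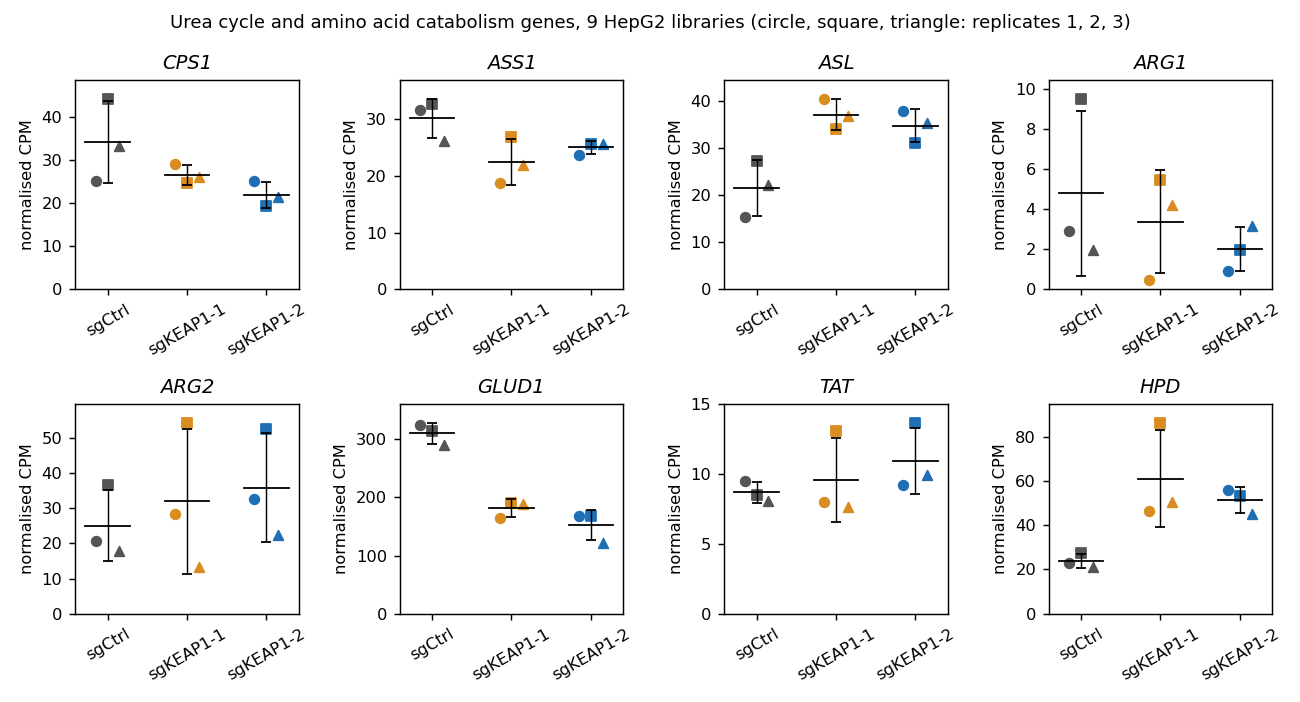
Normalised CPM (vertical axes, from 0) of the 8 genes in each library, with circles, squares and triangles for replicates 1, 2 and 3 and black bars for the mean and SD of each group (n = 3). HPD and ASL are higher in all 6 KEAP1 KO libraries than in any sgCtrl library, GLUD1 is lower in all 6, and ARG2 has its highest point at replicate 2 in every group.

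The regions upstream of the 3 genes that moved are shown because these were the genes called with both guides, and NRF2 is known to act through the antioxidant response element (ARE). The sequences are from RefSeq, in GRCh38.p14, cover the 250 bases before the start of a transcript and are read 5′ to 3′ along the gene. Capitals mark a match to the ARE core, searched as TGACNNNGC on both strands. HPD has 2 annotated starts, on the minus strand, at chr12:121888612-121888861 and chr12:121858860-121859109. The window of ASL is on the plus strand at chr7:66075569-66075818, and that of GLUD1 on the minus strand at chr10:87094844-87095093.
HPD, outer start: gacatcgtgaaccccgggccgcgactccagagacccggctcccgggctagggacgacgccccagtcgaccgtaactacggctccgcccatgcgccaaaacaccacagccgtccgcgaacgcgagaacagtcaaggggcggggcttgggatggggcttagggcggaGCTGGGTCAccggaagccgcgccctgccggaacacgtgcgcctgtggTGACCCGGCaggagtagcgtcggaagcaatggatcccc
HPD, inner start: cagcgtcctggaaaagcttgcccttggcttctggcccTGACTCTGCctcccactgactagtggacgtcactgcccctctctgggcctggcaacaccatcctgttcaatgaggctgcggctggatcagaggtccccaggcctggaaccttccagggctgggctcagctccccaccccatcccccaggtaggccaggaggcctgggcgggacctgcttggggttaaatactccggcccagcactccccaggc
ASL: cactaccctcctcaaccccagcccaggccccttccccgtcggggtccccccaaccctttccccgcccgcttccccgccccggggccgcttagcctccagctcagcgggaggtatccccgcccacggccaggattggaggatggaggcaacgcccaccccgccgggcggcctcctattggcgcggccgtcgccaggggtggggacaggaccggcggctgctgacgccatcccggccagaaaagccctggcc
GLUD1: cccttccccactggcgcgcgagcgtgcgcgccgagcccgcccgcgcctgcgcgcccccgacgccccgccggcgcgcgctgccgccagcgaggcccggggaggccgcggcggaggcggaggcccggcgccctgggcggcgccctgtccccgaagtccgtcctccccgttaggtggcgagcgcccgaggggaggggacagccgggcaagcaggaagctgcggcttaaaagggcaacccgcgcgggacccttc

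The outer HPD window held 2 matches to the ARE core, GCTGGGTCA at bases -85 to -77 and TGACCCGGC at bases -38 to -30 from the start, and the inner window held 1, TGACTCTGC at bases -213 to -205. The 2 HPD starts lie farther apart than the 24070 bases of HPD in the GENCODE annotation. At least 1 of these windows with matches is thus at a start outside the gene as placed there. The windows of ASL and GLUD1 held none, nor did the other 8 windows found for the members (12 windows of 8 genes; TAT had no entry). Among all 35116 windows of the same length, 10.9% held a match. Motifs of C/EBP (TTGCNNCAA, in 1.62% of all windows) and HNF4 (CAAAGTCCA, in 0.325%), searched on both strands, had no match in any of the 12 windows. A match is a description of letters and not a bound site. The GC content of the ASL and GLUD1 windows was 74.0% and 80.4%, that of the HPD windows 68.8% and 64.8%, and the median over all windows 58.0%.

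Among the enzymes of urea formation, ASL was the one that passed the threshold. ASL (Entrez gene 435, argininosuccinate lyase, which splits argininosuccinate into arginine and fumarate) lies on chromosome 7 from 65540787 to 65559684 on the plus strand of GRCh37. It had 15.4, 27.2 and 22.0 CPM in the sgCtrl libraries 1 to 3, 40.4, 34.0 and 36.8 with sgKEAP1-1, and 37.9, 31.0 and 35.4 with sgKEAP1-2. All 6 KEAP1 KO libraries lay above all 3 sgCtrl libraries, while the libraries of the 2 guides overlapped with each other. The log2 fold change was 0.79 with sgKEAP1-1 (standard error, SE, 0.20, edgeR adjusted p = 0.0407) and 0.70 with sgKEAP1-2 (SE 0.20, edgeR adjusted p = 0.0417), or 1.73-fold and 1.62-fold. Both calls stood close to the threshold. The call with sgKEAP1-1 was lost without sgCtrl replicate 1 (log2 fold change 0.59, edgeR adjusted p = 0.196), without sgCtrl replicate 3, without any 1 of the 3 sgKEAP1-1 libraries and without sgKEAP1-2 replicate 1, and that with sgKEAP1-2 without sgCtrl replicate 1 (log2 fold change 0.50, adjusted p = 0.182) or replicate 3, sgKEAP1-1 replicate 1 or 3, or sgKEAP1-2 replicate 1 or 3. The direction held in all 19 alternatives with each guide.

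ASS1 (Entrez gene 445, argininosuccinate synthase, the step before ASL) went the other way in its values but did not pass. It had 31.5, 32.7 and 26.2 CPM in the sgCtrl libraries, 18.8, 26.8 and 21.8 with sgKEAP1-1, and 23.7, 25.6 and 25.7 with sgKEAP1-2. The sgKEAP1-2 libraries lay below all sgCtrl libraries, whereas 1 sgKEAP1-1 library was inside the sgCtrl range. The log2 fold changes were -0.42 (SE 0.18, edgeR adjusted p = 0.297) and -0.27 (SE 0.18, edgeR adjusted p = 0.428), with 95% intervals from -0.81 to -0.03 and from -0.66 to 0.13. ASS1 has near-identical pseudogene copies in the genome, so reads could have been lost to them or gained from them.

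CPS1 (Entrez gene 1373, carbamoyl phosphate synthetase, the entry step of the cycle) lies on chromosome 2 from 211342406 to 211543831 on the plus strand of GRCh37. It had 25.2, 44.2 and 33.2 CPM in the sgCtrl libraries, 29.0, 24.6 and 26.0 with sgKEAP1-1, and 25.2, 19.3 and 21.3 with sgKEAP1-2. The lowest sgCtrl library, replicate 1, was at the level of the KEAP1 KO libraries, and the groups overlapped. The log2 fold changes were -0.36 (SE 0.21, edgeR adjusted p = 0.474) and -0.64 (SE 0.21, edgeR adjusted p = 0.0744). Without sgCtrl replicate 1 the value with sgKEAP1-2 was -0.82 and passed the threshold (edgeR adjusted p = 0.0337). Without sgCtrl replicate 2 it was -0.42 (edgeR adjusted p = 0.296), and the value with sgKEAP1-1 was -0.14.

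The 2 arginases are separate genes for the same reaction, ARG1 in the cytosol of hepatocytes and ARG2 in mitochondria of many cell types. ARG1 (Entrez gene 383) was the least abundant of the 8, with 11, 28 and 7 counts in the sgCtrl libraries, 2, 25 and 16 with sgKEAP1-1, and 3, 8 and 13 with sgKEAP1-2. These counts are 1.95 to 9.53, 0.487 to 5.45 and 0.924 to 3.15 CPM, and the 3 groups overlapped. The 95% interval of the log2 fold change ran from -1.99 to 1.11 with sgKEAP1-1 and from -2.83 to 0.53 with sgKEAP1-2, so a fall of 2-fold lay inside both intervals and a rise of 2-fold inside the first. With sgKEAP1-1 the direction turned without sgCtrl replicate 2 (0.48) or sgKEAP1-1 replicate 1 (0.06), and with sgKEAP1-2 the value was -0.24 without sgCtrl replicate 2. ARG2 (Entrez gene 384) was more abundant than ARG1 in every library, at 20.7, 36.7 and 17.8 CPM in sgCtrl cells, 28.3, 54.2 and 13.4 with sgKEAP1-1, and 32.6, 52.7 and 22.3 with sgKEAP1-2. Its log2 fold changes were 0.38 (SE 0.52, edgeR adjusted p = 0.838) and 0.53 (SE 0.52, edgeR adjusted p = 0.618). Without sgKEAP1-1 replicate 2 the first turned to -0.25, and without sgKEAP1-2 replicate 2 the second was 0.15. ARG1 overlaps MED23 and ARG2 overlaps VTI1B on the opposite strand in the GENCODE annotation, and the strand setting of the counting is not given in the sources used here.

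In all 3 groups ARG2 had its highest value in replicate 2, which was also true of 12.2% of all features tested. ASS1, ARG1, GLUD1, TAT and HPD had their highest value at replicate 2 in 2 of the 3 groups, TAT with both KEAP1 guides and HPD in sgCtrl and sgKEAP1-1 cells. The share of all features with their highest value there in 2 of the 3 groups was not counted, so this is a description only. The labels give the libraries of one number a common prefix, but do not say what it stands for.

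**Figure D2:**
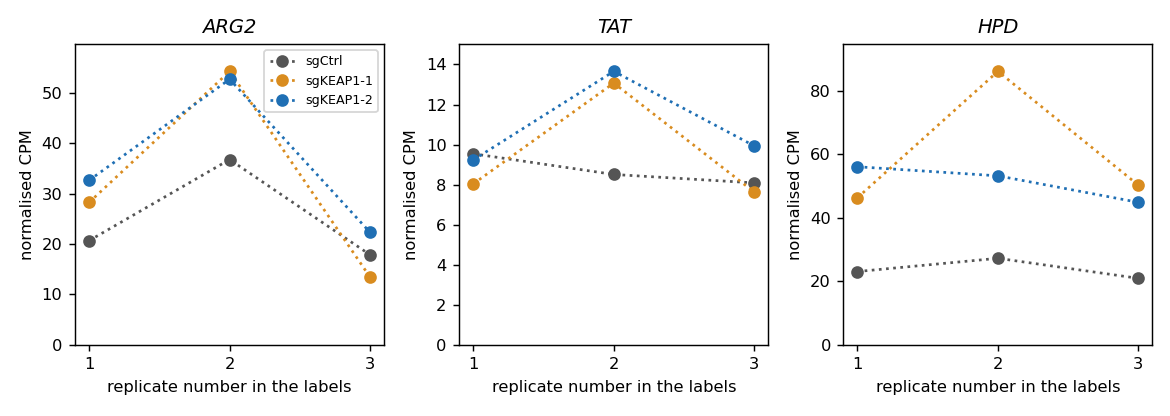
Normalised CPM (vertical axes, from 0) of ARG2, TAT and HPD against the replicate number, 1 line for each group; the dotted lines join libraries of a group and carry no order. ARG2 peaks at replicate 2 in all 3 groups, reaching 54.2 CPM with sgKEAP1-1.

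GLUD1 (Entrez gene 2746, the mitochondrial enzyme that turns glutamate into ammonia and 2-oxoglutarate) was the most abundant of the 8 genes in each group and fell with both guides. It lies on chromosome 10 from 88809959 to 88854600 on the minus strand of GRCh37. It had 326, 314 and 291 CPM in the sgCtrl libraries, 164, 191 and 190 with sgKEAP1-1, and 168, 168 and 122 with sgKEAP1-2. The lowest sgCtrl library stood well above the highest KEAP1 KO library, and sgKEAP1-2 replicate 3 was lowest of all. GLUD1 fell by 0.77 on the log2 scale with sgKEAP1-1 (SE 0.14, edgeR adjusted p = 0.004) and by 1.03 with sgKEAP1-2 (SE 0.14, edgeR adjusted p = 0.000228), which is 1.71-fold and 2.04-fold lower. The call was kept in all 19 alternatives with each guide, with values from -0.82 to -0.70 and from -1.10 to -0.89. GLUD2, a near-identical retrocopy of GLUD1, had 8.91 ± 2.10 CPM (n = 3, SD) in sgCtrl cells, 5.65 ± 1.54 (n = 3, SD) with sgKEAP1-1 and 4.60 ± 1.08 (n = 3, SD) with sgKEAP1-2, and reads of the 2 genes could have been exchanged in the alignment. SHLD2 overlaps GLUD1 on the opposite strand.

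In the tyrosine pathway the second enzyme rose while the first did not pass. HPD (Entrez gene 3242, 4-hydroxyphenylpyruvate dioxygenase) lies on chromosome 12 from 122277433 to 122301502 on the minus strand of GRCh37 in GENCODE. The RefSeq starts whose windows are shown above lie farther apart than this span is long, so the annotations differ and at least 1 of those starts is outside the gene as placed here. It had 23.1, 27.2 and 20.9 CPM in the sgCtrl libraries, 46.3, 86.1 and 50.2 with sgKEAP1-1, and 56.0, 53.2 and 44.8 with sgKEAP1-2. All KEAP1 KO libraries lay above all sgCtrl libraries, and sgKEAP1-1 replicate 2 stood above the other 5. The log2 fold change was 1.37 with sgKEAP1-1 (SE 0.23, edgeR adjusted p = 0.00236) and 1.12 with sgKEAP1-2 (SE 0.23, edgeR adjusted p = 0.00581), or 2.58-fold and 2.17-fold. Without sgKEAP1-1 replicate 2 the value with that guide was 1.03 (edgeR adjusted p = 0.00458), and the call was kept in all 19 alternatives with each guide.

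TAT (Entrez gene 6898, tyrosine aminotransferase, a classical glucocorticoid-induced liver enzyme) had 9.54, 8.51 and 8.09 CPM in the sgCtrl libraries, 8.04, 13.1 and 7.63 with sgKEAP1-1, and 9.24, 13.7 and 9.93 with sgKEAP1-2. Both high values were replicate 2 libraries, and the groups overlapped. The log2 fold changes were 0.14 (SE 0.28, edgeR adjusted p = 0.896) and 0.33 (SE 0.28, edgeR adjusted p = 0.535), with 95% intervals from -0.46 to 0.74 and from -0.27 to 0.93. Without sgKEAP1-1 replicate 2 the first turned to -0.15, and without sgKEAP1-2 replicate 2 the second was 0.15. TAT lies inside the antisense gene TAT-AS1 in the annotation, and without a stated strand setting the reads of the 2 cannot be told apart.

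Of the later steps, HGD, homogentisate dioxygenase, had 207 ± 5.54 CPM (n = 3, SD) in sgCtrl cells, 231 ± 19.8 (n = 3, SD) with sgKEAP1-1 and 239 ± 15.7 (n = 3, SD) with sgKEAP1-2, and did not pass (edgeR adjusted p = 0.597 and 0.313). GSTZ1, maleylacetoacetate isomerase, had 17.3 ± 3.37 CPM (n = 3, SD) in sgCtrl cells, with log2 fold changes of 0.06 and 0.11 (edgeR adjusted p = 0.955 and 0.841). FAH, fumarylacetoacetate hydrolase, the last step, had 53.8, 36.4 and 49.4 CPM in the sgCtrl libraries, 69.7, 56.2 and 63.6 with sgKEAP1-1, and 75.4, 55.9 and 84.8 with sgKEAP1-2. Every KEAP1 KO library was above every sgCtrl library. FAH rose with sgKEAP1-2 (log2 fold change 0.62, edgeR adjusted p = 0.0439), a call lost in 9 of 19 alternatives, and its value with sgKEAP1-1 was 0.43 (edgeR adjusted p = 0.279).

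**Figure D3:**
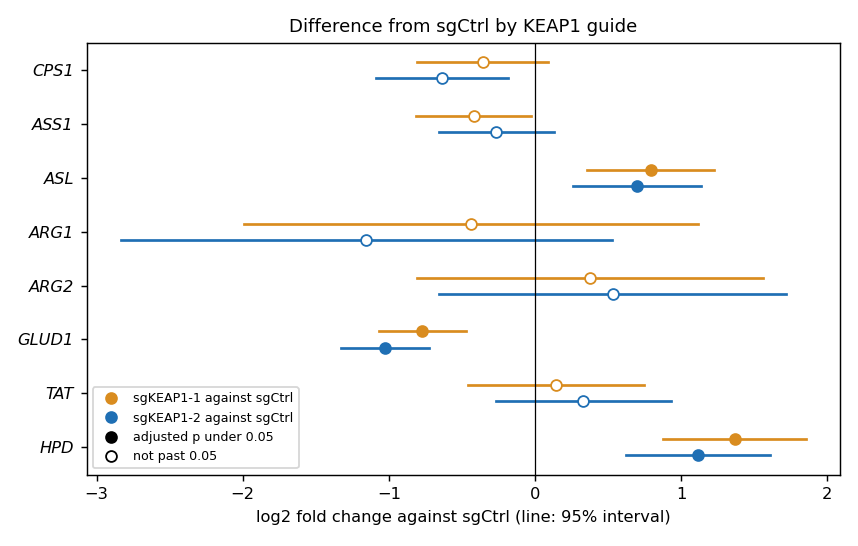
Log2 fold change of the 8 genes against sgCtrl (horizontal axis) with 95% intervals from edgeR, for sgKEAP1-1 (orange) and sgKEAP1-2 (blue); filled points have an adjusted p under 0.05. ASL and HPD lie to the right of 0 and GLUD1 to the left with both guides, from 1.37 for HPD to -1.03 for GLUD1, while the intervals of ARG1 and ARG2 are the widest.

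The order of the levels changed between the groups. QuantSeq reads only the end of each transcript next to its tail, so a CPM is not raised by transcript length. Levels of different genes can then be set side by side, within the limits on read assignment given above for ASS1, ARG1, ARG2, GLUD1 and TAT. In sgCtrl cells the order by mean CPM was GLUD1 (310), CPS1 (34.2), ASS1 (30.1), ARG2 (25.1), HPD (23.7), ASL (21.5), TAT (8.71) and ARG1 (4.80). Only GLUD1 and CPS1, and ASL and TAT, were neighbours whose libraries did not overlap. GLUD1 stood above 95.1% of all tested features in sgCtrl cells, and ARG1 above 10.8%. With sgKEAP1-1 the order was GLUD1 (182), HPD (60.9), ASL (37.1), ARG2 (32.0), CPS1 (26.5), ASS1 (22.5), TAT (9.58) and ARG1 (3.38), and with sgKEAP1-2 it was GLUD1 (152), HPD (51.3), ARG2 (35.9), ASL (34.7), ASS1 (25.0), CPS1 (21.9), TAT (10.9) and ARG1 (2.01). HPD was thus in place 5 in sgCtrl cells and in place 2 with each guide, and CPS1 in place 2 in sgCtrl cells and in place 5 or 6 with a KEAP1 guide. With sgKEAP1-1 the neighbours ASL and ARG2, ARG2 and CPS1, and CPS1 and ASS1 overlapped, and with sgKEAP1-2 HPD and ARG2, ARG2 and ASL, and ASS1 and CPS1 did.

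The KEAP1 guides were compared directly. None of the 8 genes passed (0 with edgeR, 0 with limma-voom and 0 with DESeq2), against 0.0181% of all features. At an unadjusted p under 0.05 the count was also 0, against 5.08%. The libraries of the guides did not overlap for 0 of the 8, against 5.5% of features higher and 4.93% lower. The difference of sgKEAP1-2 from sgKEAP1-1 on the log2 scale was -0.25 for GLUD1 (95% interval from -0.55 to 0.05), -0.25 for HPD (from -0.71 to 0.21) and -0.10 for ASL (from -0.51 to 0.32). It was -0.28 for CPS1 (from -0.73 to 0.18), 0.15 for ASS1 (from -0.24 to 0.55) and 0.19 for TAT (from -0.39 to 0.77). For the arginases the intervals were wider, from -2.41 to 0.98 for ARG1 and from -0.99 to 1.30 for ARG2. These intervals do not show that the guides act alike.

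For the 3 genes that moved, the genes with the most similar pattern were sought by the Pearson correlation of log2 CPM over the 9 libraries, as a description in which the split between sgCtrl and KEAP1 KO libraries takes a large part. For HPD these were NCEH1 (r = 0.96), IFITM2 (0.95) and PLCD3 (0.95). For ASL they were MRPL28 (0.94), LUCAT1 (0.94) and TRIM16L (0.94), and for GLUD1 IST1 (0.99), MT1E (0.98) and LINC00261 (0.97). Among the 8 genes themselves r was 0.77 for ASL and HPD, -0.81 for ASL and GLUD1 and -0.73 for GLUD1 and HPD, and 0.79 for ARG2 and TAT, which had no called change. ASL and ASS1, consecutive enzymes of the cycle, had r = -0.72.

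A wider list of 89 genes of the same pathways was examined next, of which 78 were in the table and 76 were tested. With sgKEAP1-1, 2 were called higher and 3 lower (2.63% and 3.95% of those tested, beside 2.8% and 1.4% of all features). With sgKEAP1-2, 3 were called higher and 10 lower (3.95% and 13.2%, beside 5.96% and 4.85%). The median log2 fold change of the 76 was -0.10 and -0.20, against -0.00 and -0.01 over all features. Libraries did not overlap with the sgCtrl libraries for 5 genes above and 16 below with sgKEAP1-1 (11.5% and 10.3% of all features did so), and for 8 above and 21 below with sgKEAP1-2 (14.3% and 13.7%). The numbers called lower, and the number called higher with sgKEAP1-1, changed with libraries left out. All features called changed as well, from 278 to 688 with sgKEAP1-1 (465 with all libraries) and from 764 to 1291 with sgKEAP1-2 (1196). Whether the list depended on particular libraries beyond this general change was not tested. The number called higher with sgKEAP1-2 was 2 to 4 with libraries left out. Without sgCtrl replicate 1 the genes called lower went from 3 to 0 with sgKEAP1-1 and from 10 to 5 with sgKEAP1-2, and without sgCtrl replicate 2 to 1 and 6. With sgKEAP1-1 the number called lower was 1 without sgKEAP1-1 replicate 1 or 3 and 5 without sgKEAP1-2 replicate 3, and the number called higher was 1 without sgCtrl replicate 1 or 2 or any sgKEAP1-1 library. In an alternative fit with the replicate number as a block, 4 were called higher and 13 lower with sgKEAP1-1, and 16 lower with sgKEAP1-2.

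**Figure D4:**
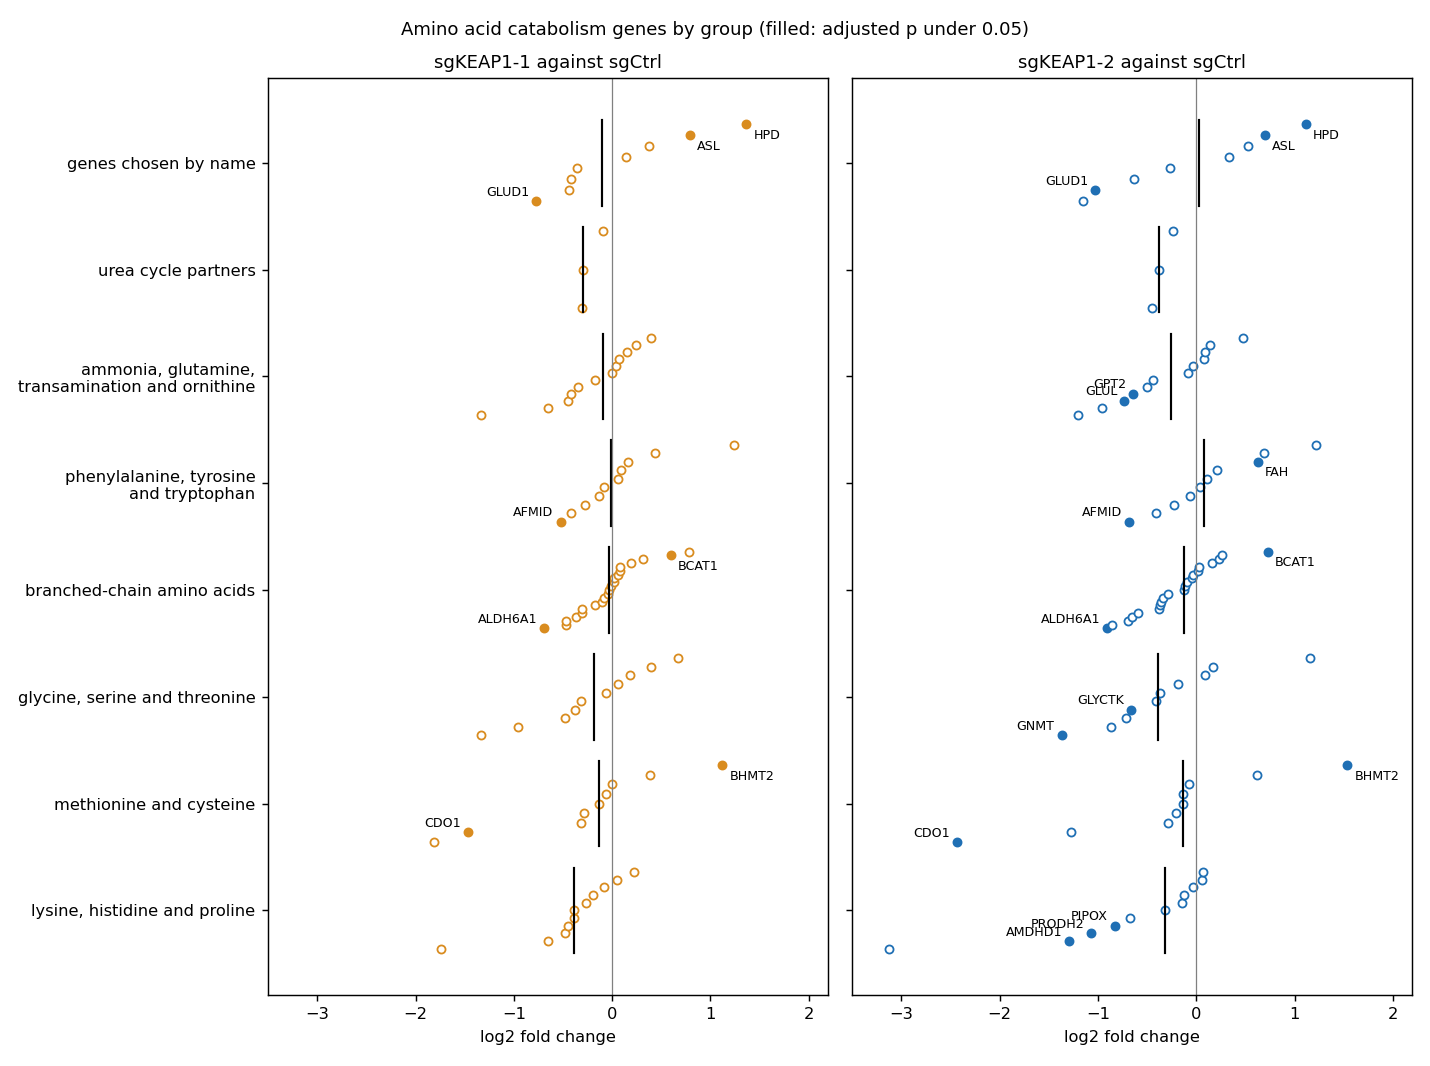
Log2 fold change against sgCtrl (horizontal axis) of the 8 genes and of each of 7 groups of related genes (rows), for sgKEAP1-1 (left) and sgKEAP1-2 (right). Each point is a gene, filled and named where the adjusted p was under 0.05, and black ticks are row medians; 5 genes of the 7 lower rows are filled on the left and 13 on the right.

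The partners of the urea cycle did not pass with either guide (0 of 3 with edgeR, beside 4.2% and 10.8% of all features). At an unadjusted p under 0.05 there were also 0, beside 15% and 23.3%. With sgKEAP1-1 the libraries of 2, SLC25A15 and SLC25A13, lay below all sgCtrl libraries, beside 10.3% of all features. With sgKEAP1-2 this held for 0, beside 13.7%. NAGS, which makes the activator of CPS1, was at 5.18 ± 1.68 CPM (n = 3, SD) in sgCtrl cells, 4.77 ± 0.654 (n = 3, SD) with sgKEAP1-1 and 3.70 ± 0.995 (n = 3, SD) with sgKEAP1-2. The ornithine carrier SLC25A15 had log2 fold changes of -0.31 and -0.38, and the aspartate-glutamate carrier SLC25A13 of -0.29 and -0.24.

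Among 12 genes of ammonia, glutamine, transamination and ornithine, 0 were called with sgKEAP1-1 by edgeR, beside 4.2% of all features. At an unadjusted p under 0.05 there were 2 (16.7%, beside 15% of all features). With sgKEAP1-2, 2 were called, both lower (16.7%, beside 4.85% of all features). GLUL, glutamine synthetase, had 237, 270 and 226 CPM in the sgCtrl libraries, 160, 221 and 155 with sgKEAP1-1, and 158, 178 and 105 with sgKEAP1-2. Its libraries did not overlap with either guide, and it fell with sgKEAP1-2 by 0.73 on the log2 scale (edgeR adjusted p = 0.0233). GPT2, the mitochondrial alanine aminotransferase, fell by 0.64 with sgKEAP1-2 (edgeR adjusted p = 0.0257), from 695 ± 89.6 to 446 ± 75.6 CPM (n = 3, SD). The aspartate aminotransferases GOT1 and GOT2 had log2 fold changes of 0.14 and 0.08 with sgKEAP1-2, neither past the threshold.

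The other groups held 5 genes called with both guides, 2 higher and 3 lower (2.63% and 3.95% of the wider list, beside 2.77% and 1.37% of all features called with both). BHMT2, a betaine-homocysteine methyltransferase relative that uses S-methylmethionine, had 15.4, 18.7 and 18.7 CPM in the sgCtrl libraries, 43.4, 36.8 and 34.4 with sgKEAP1-1, and 55.1, 43.9 and 54.0 with sgKEAP1-2. It rose by 1.12 (SE 0.18, edgeR adjusted p = 0.00154) and 1.54 (SE 0.18, edgeR adjusted p = 4.83e-05) on the log2 scale. BHMT, its close paralog, had values in the other direction, with 13 to 23 counts in the sgCtrl libraries, 3 to 10 with sgKEAP1-1 and 4 to 15 with sgKEAP1-2, and did not pass (edgeR adjusted p = 0.114 and 0.184). CDO1, cysteine dioxygenase, which opens the route from cysteine to taurine, had 38, 27 and 29 counts in the sgCtrl libraries, 16, 14 and 11 with sgKEAP1-1, and 6, 6 and 7 with sgKEAP1-2. It fell by 1.47 (edgeR adjusted p = 0.0124) and 2.44 (edgeR adjusted p = 0.000323) on the log2 scale, the largest decrease among the called genes of the wider list with sgKEAP1-2.

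In branched-chain amino acid breakdown (21 tested), BCAT1, the cytosolic aminotransferase of the first step, rose from 54.3 ± 6.65 CPM (n = 3, SD) to 81.9 ± 5.66 (n = 3, SD) with sgKEAP1-1 and 89.8 ± 10.7 (n = 3, SD) with sgKEAP1-2. The log2 fold changes were 0.59 (edgeR adjusted p = 0.0287) and 0.73 (edgeR adjusted p = 0.0042). ALDH6A1, the methylmalonate semialdehyde dehydrogenase of valine breakdown, fell from 125 ± 9.18 CPM (n = 3, SD) to 77.5 ± 16.9 (n = 3, SD) and 66.9 ± 9.17 (n = 3, SD). Its log2 fold changes were -0.69 (edgeR adjusted p = 0.0247) and -0.90 (edgeR adjusted p = 0.00229). AFMID, kynurenine formamidase of tryptophan breakdown, had 359, 401 and 327 CPM in the sgCtrl libraries, 256, 272 and 227 with sgKEAP1-1, and 226, 223 and 228 with sgKEAP1-2. Both guides' libraries lay below all sgCtrl libraries and overlapped with each other. AFMID fell by 0.53 and 0.68 on the log2 scale (edgeR adjusted p = 0.0202 and 0.00179). With sgKEAP1-1 the calls of AFMID and ALDH6A1 were each lost in 5 of 19 alternatives, that of BCAT1 in 6 of 19 and that of CDO1 in 3 of 18, whereas with sgKEAP1-2 all 4 were kept throughout.

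Also called lower with sgKEAP1-2 were GNMT, glycine N-methyltransferase, with a log2 fold change of -1.37 (edgeR adjusted p = 0.0257), and AMDHD1 of histidine breakdown with -1.29 (edgeR adjusted p = 0.0326). With sgKEAP1-1 their values were -1.33 (edgeR adjusted p = 0.0519) and -0.39 (edgeR adjusted p = 0.689). With sgKEAP1-2 GNMT lost its call in 4 of 18 alternatives and AMDHD1 in 6 of 19, and with sgKEAP1-1 GNMT gained one in 4 of 18. The difference between the guides was -0.04 for GNMT and -0.90 for AMDHD1, and neither passed (edgeR adjusted p = 0.995 and 0.915). Both are low, at 19 to 31 and 25 to 46 counts in the sgCtrl libraries. The other genes called lower with sgKEAP1-2 were PIPOX (-0.83) and PRODH2 (-1.07), the oxidases of pipecolate and hydroxyproline, and GLYCTK, glycerate kinase (-0.66). Of the whole wider list, 0 genes passed between the guides with edgeR, limma-voom or DESeq2, and 8 (10.5%) had an unadjusted p under 0.05, beside 5.08% of all features.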

How the data were processed

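The authors prepared QuantSeq 3′ mRNA libraries for 9 HepG2 samples, trimmed the reads (cutadapt 1.16), aligned them (STAR 2.7.5b) and counted them on genes (featureCounts 1.6.3), and deposited raw read counts as whole numbers, not normalized. Their processing notes name hg38 and the methods name GRCh37; the rows carry Entrez numbers and no coordinates. The annotation, strand setting and low-count filter are not given in the sources used here. All 12798 rows had over 0.5 CPM in at least 3 libraries, so rarer genes are not analysed here.

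The 1052 rows without an Entrez number (1.34% of reads) were left out of library sizes and tests. Symbols (11740 rows) came from RefSeq by number, and 3 numbers occurred on 2 rows. Features passing filterByExpr (11064) were scaled by TMM and tested with edgeR's quasi-likelihood test (edgeR 4.0.16, R 4.3.3, robust fit, group as the only factor, all 9 libraries), at an adjusted p (Benjamini-Hochberg) under 0.05. The paper names limma-voom without a design; limma-voom (limma 3.58.1) and DESeq2 1.42.0 were alternatives, with the replicate number as a block, other scalings and filters, only the 2 groups compared, and each library left out. Another 2 were added after seeing the data: rows without a number kept, and replicate 2 left out of all groups. Standard errors are the log2 fold change over the square root of F. Log2 CPM used a prior count of 2. Same-group libraries differed by far more than sampling noise (chi-square per degree of freedom 4.69 to 23.8).

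Named in the text are the 9 members, KEAP1 and NQO1 as checks, genes of the wider list called with both guides, the 3 largest changes each way among its genes called with sgKEAP1-2, and the 3 genes most like each called member. PIPOX, PRODH2, GLYCTK, GLUL, GPT2, GOT1, GOT2, GLUD2, NAGS, SLC25A15, SLC25A13, HGD, GSTZ1, BHMT, CSAD and the markers are named outside this rule, after their values were seen. Some genes of the wider list are not reported here. The members and lists were chosen with earlier results of these data known. In simulated counts for sgKEAP1-1 against sgCtrl (10767 genes), the test found 37 of 50 genes raised and 35 of 50 lowered 2-fold, and 4 of 50 each way at 1.5-fold, with 4 false calls. The simulation gave all groups the sgCtrl profile, each gene the spread typical of its level, and a change to 200 genes. The real libraries differ from this, so the shares found need not hold for them.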

Additional observations from a re-analysis of the deposited data

Results flagged for a closer look

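CSAD, cysteine sulfinic acid decarboxylase of the route from cysteine to taurine, was the gene of the lists whose same-numbered differences from sgCtrl were all negative with sgKEAP1-1 and all positive with sgKEAP1-2. It had 4.24, 3.74 and 2.51 CPM in the sgCtrl libraries, 3.17, 3.27 and 2.10 with sgKEAP1-1, and 4.93, 4.88 and 6.30 with sgKEAP1-2, from 8 to 26 counts per library. The difference of sgKEAP1-2 from sgKEAP1-1 was 0.902 on the log2 scale (95% interval from 0.13 to 1.67) and did not pass when tested directly (adjusted p = 0.915, unadjusted p = 0.0251, edgeR's quasi-likelihood test).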

How the results depend on the processing

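HPD and GLUD1 kept their direction and their call with both guides under all 19 alternatives, and ASL kept its direction but lost its call in 7 of 19 with each guide. Requiring at least 10 counts in every library left 1 member called higher with sgKEAP1-1, and fitting only the 2 groups compared left 1 with sgKEAP1-2. Between the guides, the features called numbered 2, and 0 with limma-voom, with the minimum of 10 counts or with only the 2 groups, and 19 with DESeq2. The cause of these changes was not tested.

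With libraries left out, all features called ranged from 278 to 688 with sgKEAP1-1, from 764 to 1291 with sgKEAP1-2 and from 0 to 2 between the guides. Members called higher ranged from 1 to 2 with each guide, and members called lower were 1 with sgKEAP1-1 and 1 to 2 with sgKEAP1-2, the second being CPS1. Of the wider list, 1 to 3 were called higher and 0 to 5 lower with sgKEAP1-1, and 2 to 4 higher and 5 to 11 lower with sgKEAP1-2.

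The replicate block raised all features called to 977 with sgKEAP1-1, 1956 with sgKEAP1-2 and 26 between the guides. With the block, 4 genes of the wider list were called higher and 13 lower with sgKEAP1-1, 16 were called lower with sgKEAP1-2, and 2 members were called lower with sgKEAP1-2, GLUD1 and CPS1 (-0.63, edgeR adjusted p = 0.0403). Of the 9 pairs of libraries with the same number, 7 had a correlation of their deviations over 0.1 (from -0.0129 to 0.521), and 7 of 9 libraries correlated best with their own number. Since 2 pairs were not over 0.1 and the labels do not say what the number or the prefix that goes with it marks, the block was kept as an alternative.

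In the test on simulated counts, 8% of genes changed 1.5-fold were found, under simpler settings than those of the real libraries. ARG1 had 2 to 28 counts per library, and what depth and the spread between libraries each add to its wide interval was not tested.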
